A study of Homo sapiens with 3 samples.

Results

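The 46 genes described here encode the machinery of DNA replication and the regulators of S-phase entry. They were taken from a fixed list of gene symbols and found by the symbol that each transcript name carries, and all 46 were present among the 60506 genes on chromosomes. RNA came from HaCaT, a spontaneously immortalized line of human skin keratinocytes. One library was from cells given a control siRNA and labelled WT. Each of the other two was from cells given a different siRNA against SRSF5 and labelled as SRSF5 knockdown (siRNA 1 and siRNA 2 below), and every siRNA was used at 10 nM with the same lipid reagent. The control therefore has 1 library and the SRSF5 siRNA group has n = 2 with a different siRNA in each, no repeat of any transfection is labelled, and the time between transfection and harvest is not given in the sources used here.

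Replication origins are licensed in G1, when the origin recognition complex, CDC6 and CDT1 load the ring-shaped MCM helicase onto DNA. At the start of S phase CDC45 and GINS join the MCM ring to form the active helicase, the DNA polymerase alpha and primase complex starts each strand, RFC loads the PCNA clamp, and the polymerases delta and epsilon extend. Many of these genes are transcribed as a group in late G1 by E2F transcription factors, which are released when cyclin D and cyclin E kinases phosphorylate the retinoblastoma protein. In skin, basal keratinocytes hold this programme and cells that leave the basal layer shut it down. SRSF5 is an SR protein that binds pre-mRNA and influences which splice sites are used.

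Levels are in FPKM, the fragments on a transcript scaled to its length and to the size of the library, summed over the listed transcripts of a gene. The values show that reads common to several transcripts were counted for each, so the sum grows with the number of listed transcripts, which was 1 to 24 per gene and 402 in all, and is compared only within a gene. Ratios are log2 of the summed FPKM plus 1, SRSF5 siRNA library over control library. The error given with a single ratio is its counting error (1 SE), computed from equivalents of a 100-base read in the largest transcript, and does not include variation between cultures. A gene is called lower or higher when it differed at least 1.5-fold from the control (a log2 ratio of 0.585 in size). All 46 members passed the filter of a mean of at least 1 FPKM, as did 13923 genes in all, and each percentage given for all genes refers to those.

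The libraries held 18329226, 17712826 and 15870876 read equivalents in the largest transcripts of all genes (control, siRNA 1, siRNA 2). The targeted gene SRSF5 stood at a summed 94.1 (control), 44.3 (siRNA 1) and 18.7 (siRNA 2). Mitochondrial transcripts took 13.7%, 14.8% and 10.0% of counted bases. All 8 keratinocyte markers were measured, with a summed level of 4307, 5507 and 9194. With siRNA 2, 6 of them were higher (13.2% of all genes) and 1, ITGA6, lower (10.1% of all genes). With siRNA 1, 2 were higher (6.18% of all genes) and 0 lower (5.47% of all genes). Summed levels of 5 fibroblast markers were 0.406, 0.483 and 1.43, of 4 melanocyte markers 0.726, 0.371 and 0.609 (MLANA and TYR were listed at 0 throughout), of 4 leukocyte markers 0.616, 0.628 and 0.668, and of 4 endothelial markers 3.71, 1.91 and 2.46, where CDH5 alone passed the filter.

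Replication genes were near or somewhat below the control with siRNA 1 and further below it with siRNA 2. The median log2 ratio of the 46 members was -0.08 with siRNA 1 and -0.27 with siRNA 2, against -0.02 and 0.05 over all genes tested. With siRNA 2, 11 members were at least 1.5-fold lower (23.9%, against 10.1% of all genes) and 0 were higher (13.2% of all genes). With siRNA 1, 2 were lower (5.47% of all genes) and 0 higher (6.18% of all genes). In both libraries the same 2 genes were lower, CCNE2 and RPA2 (1.47% of all genes), and 0 were higher (3.19% of all genes). By sign alone, 28 members stood below the control with siRNA 1 (53.4% of all genes), 34 with siRNA 2 (46% of all genes), 22 with both (29.4% of all genes) and 6 were above it with both (30.1% of all genes). The ratios of both siRNAs share the 1 control library, so they do not check each other. In bulk RNA, fewer cells in S phase and less of these RNAs per cell cannot be told apart. The higher level of most keratinocyte markers, the lower mitochondrial share and the lower depth of the siRNA 2 library move with these values. Their part in these values was not tested.

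In limma fitted to all 13923 genes, 0 genes, and so 0 of the 46 members, passed an adjusted p of 0.05 (Benjamini-Hochberg), and the members' adjusted p was 1.00 throughout. At an unadjusted p below 0.05 limma gave 1 member, CCNE2, and 2.99% of all genes. The spread in this fit comes from the difference between the siRNA libraries, which leaves 1 residual degree of freedom and presumes an equal spread for the unreplicated control. limma draws the spread of each gene towards that of genes of similar level. Its SE is therefore not the gene's own difference between the siRNAs. No difference below passed this test, and all are given as measured in these libraries.

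**Figure D1:**
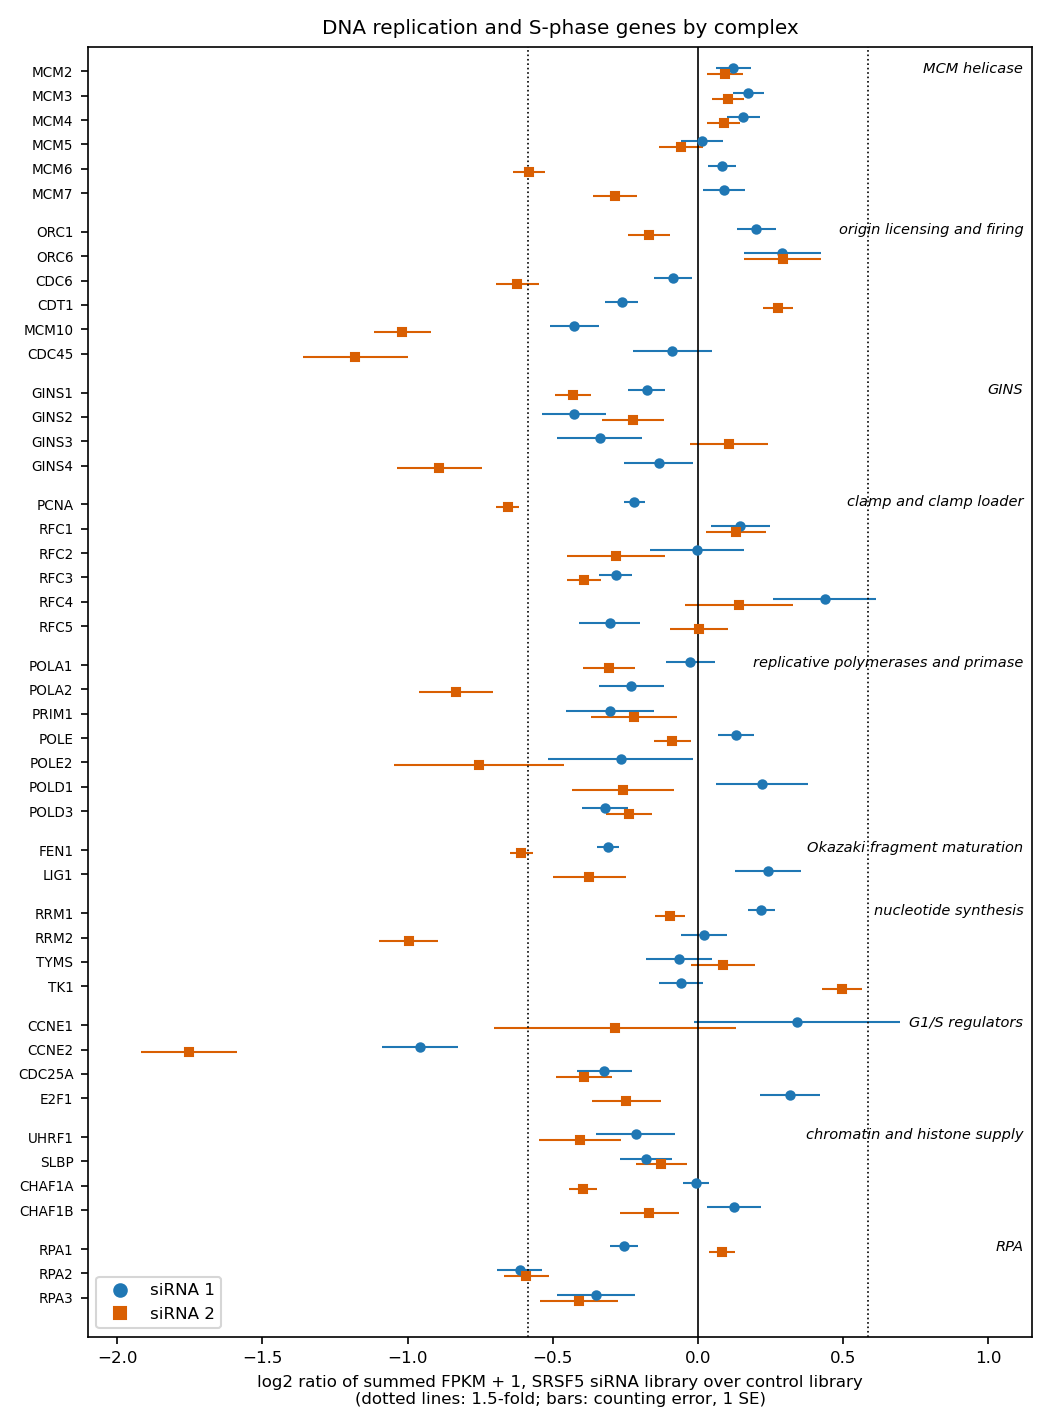
Log2 ratios of the 46 members to the control library, grouped by complex, for siRNA 1 (circles) and siRNA 2 (squares); bars are counting errors of 1 SE and dotted lines mark 1.5-fold. With siRNA 2, 11 squares lie left of the lower line, while CCNE2 and RPA2 lie left of it with both siRNAs and 0 points lie right of the upper line.

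Because these genes are textbook targets of E2F, their promoters are shown where the letters of the E2F consensus were found. RefSeq promoter windows (GRCh38.p14) of 300 bases, 250 before and 50 after the start, were matched by symbol for 39 members, with 49 windows in all. The remaining 7 were MCM4, MCM5, GINS4, POLD3, CCNE2, RPA2 and RPA3. The motif was searched on both strands as TTTCCCGC, TTTCGCGC, TTTGCCGC and TTTGGCGC, which can overlap each other on opposite strands. It was found in 21 of the 49 windows (42.9%), against 1164 of 35116 windows of all genes (3.31%), and in 20 of the 39 members. The letters CCAAT, read by NF-Y and again searched on both strands, were in 30 of the 49 windows (61.2%) against 34.6% of all windows. Among the members lower with siRNA 2 that have a window, 4 of 8 held the E2F motif, and among the other members 16 of 31 did. Counted by window these were 4 of 12 (33.3%) and 17 of 37 (45.9%), and the difference was not tested. A match describes the letters in this window and does not show binding.

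The 250 bases before the start are given 5′ to 3′ on the gene's strand for the 3 members with the lowest and the 3 with the highest mean ratio among those that hold the motif there, with the motif, on either strand, in capitals. POLA2 (chr11:65261712-65261961, plus strand), PCNA (chr20:5126623-5126872, minus strand) and CDC25A (chr3:48188418-48188667, minus strand) are the lowest. MCM3 (chr6:52284743-52284992), E2F1 (chr20:33686386-33686635) and POLE (chr12:132687343-132687592), each on the minus strand, are the highest.
POLA2: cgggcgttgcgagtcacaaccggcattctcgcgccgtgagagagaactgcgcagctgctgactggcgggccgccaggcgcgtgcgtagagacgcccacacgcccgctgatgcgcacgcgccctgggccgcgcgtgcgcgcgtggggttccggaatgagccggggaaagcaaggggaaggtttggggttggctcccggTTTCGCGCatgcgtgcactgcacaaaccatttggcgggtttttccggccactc
PCNA: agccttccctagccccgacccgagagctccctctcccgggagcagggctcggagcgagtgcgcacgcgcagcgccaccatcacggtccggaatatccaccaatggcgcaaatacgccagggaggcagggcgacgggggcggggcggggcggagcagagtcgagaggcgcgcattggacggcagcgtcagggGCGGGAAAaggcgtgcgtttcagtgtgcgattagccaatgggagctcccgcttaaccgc
CDC25A: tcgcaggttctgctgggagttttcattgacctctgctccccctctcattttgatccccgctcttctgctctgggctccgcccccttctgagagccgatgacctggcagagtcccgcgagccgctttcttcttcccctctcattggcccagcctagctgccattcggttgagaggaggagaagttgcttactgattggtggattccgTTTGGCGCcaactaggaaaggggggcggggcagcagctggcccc
MCM3: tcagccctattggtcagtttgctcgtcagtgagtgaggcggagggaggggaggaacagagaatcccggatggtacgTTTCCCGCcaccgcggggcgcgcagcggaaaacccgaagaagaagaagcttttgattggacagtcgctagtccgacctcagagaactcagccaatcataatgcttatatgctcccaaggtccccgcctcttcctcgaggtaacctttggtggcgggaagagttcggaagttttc
E2F1: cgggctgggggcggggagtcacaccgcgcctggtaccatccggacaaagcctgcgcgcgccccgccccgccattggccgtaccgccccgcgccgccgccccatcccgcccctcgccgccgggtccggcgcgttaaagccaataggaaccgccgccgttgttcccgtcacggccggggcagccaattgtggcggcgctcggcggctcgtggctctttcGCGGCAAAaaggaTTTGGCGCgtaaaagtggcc
POLE: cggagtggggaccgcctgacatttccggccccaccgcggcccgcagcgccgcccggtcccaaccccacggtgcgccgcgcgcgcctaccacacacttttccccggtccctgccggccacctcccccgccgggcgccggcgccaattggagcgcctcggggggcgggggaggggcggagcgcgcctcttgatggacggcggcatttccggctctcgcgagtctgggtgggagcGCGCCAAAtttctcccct
The motif begins 53 bases before the start in POLA2, 59 in PCNA and 44 in CDC25A, whose mean log2 ratios were -0.53, -0.44 and -0.36. It begins 174 bases before the start in MCM3, which has another match 4 bases before the start that runs past the printed stretch, and 18 in POLE, and E2F1 holds a pair at 33 and 20, with mean log2 ratios of 0.14, 0.02 and 0.03.

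**Figure D2:**
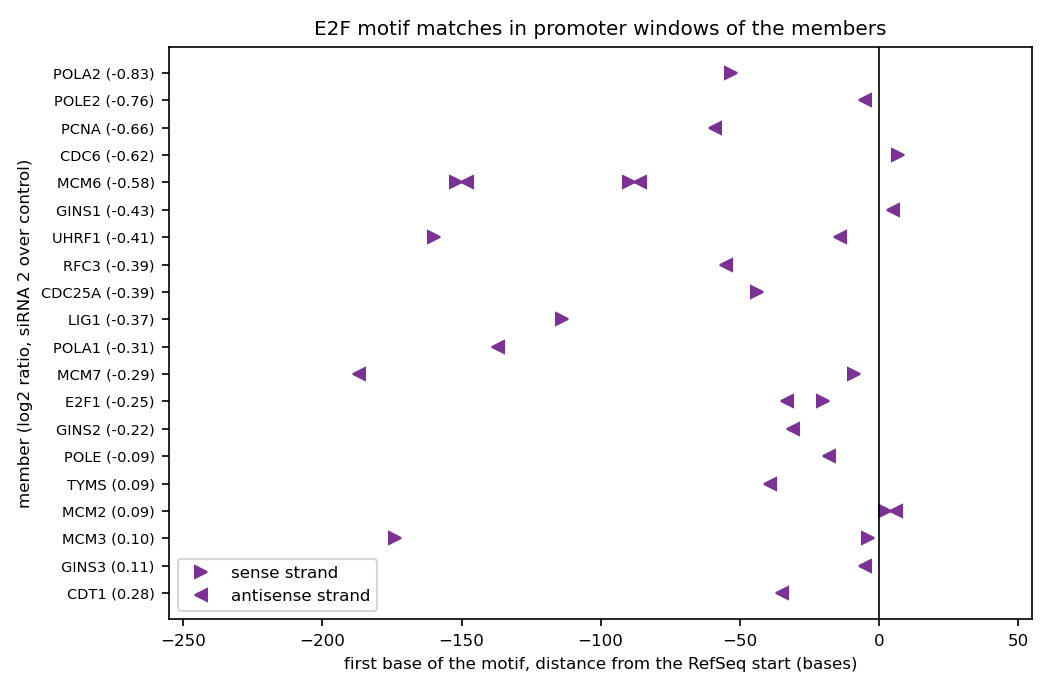
Distance of the first base of each E2F motif match from the RefSeq start, for the 20 members with a match, ordered by the log2 ratio of siRNA 2 over control in parentheses; triangles point right for the sense strand and left for the antisense strand. Matches lie near the start in members with low ratios (POLA2, -0.83) and with high ones (CDT1, 0.28).

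The MCM genes encode the 6 subunits of the helicase ring. With siRNA 1 all 6 stood slightly above the control, with log2 ratios of 0.01 to 0.17, and with siRNA 2 they differed from each other. All 6 were lower with siRNA 2 than with siRNA 1, from -0.03 ± 0.06 (MCM2) to -0.66 ± 0.05 (MCM6) on the log2 scale. In the order control, siRNA 1, siRNA 2, which is kept from here on, MCM2 was at 68.2, 74.3 and 72.8. Exons of AC023593.1 on the other strand cover 23.6% of the exon bases of MCM2. MCM3 was at 64.1, 72.4 and 68.9, and MCM4 at 196, 219 and 208. These 3 were above the control with both siRNAs, and their differences between the siRNAs were within or near counting error. MCM5 was at 53.2, 53.7 and 51.0. MCM6 was at 30.8, 32.7 and 20.3, a log2 ratio of -0.58 ± 0.05 with siRNA 2 that falls just short of 1.5-fold, and MCM7 was at 78.6, 83.7 and 64.3 (-0.29 ± 0.08). The subunits of 1 ring therefore ranged from 65.7% (MCM6) to 108% (MCM3) of the control with siRNA 2, and from 101% (MCM5) to 113% (MCM3) with siRNA 1.

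Genes that license origins and fire them ranged from -1.18 (CDC45) to 0.29 (ORC6) on the log2 scale with siRNA 2. CDC45, the helicase cofactor that joins the MCM ring (chromosome 22, 19479459 to 19520612, plus strand), was at 33.6, 31.6 and 14.3. It was close to the control with siRNA 1 and at 42.5% of it with siRNA 2 (log2 ratio -1.18 ± 0.18). MCM10, which is needed to activate the helicase (chromosome 10, 13161554 to 13211104, plus strand), was at 28.6, 21.1 and 13.6, stepwise lower, with ratios of -0.43 ± 0.08 and -1.02 ± 0.10. CDC6, the loader of MCM rings, was at 56.1, 52.9 and 36.1 (-0.09 ± 0.07 and -0.62 ± 0.07). Its partner CDT1 was above the control with siRNA 2, at 37.9, 31.4 and 46.1. Of the origin recognition subunits in the list, ORC6 was at 20.6, 25.4 and 25.4, above the control by 0.29 with either siRNA, and ORC1 was at 12.8, 14.8 and 11.3.

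The GINS tetramer completes the active helicase. GINS4 was at 14.1, 12.8 and 7.17, which is 50.7% of the control with siRNA 2 (-0.89 ± 0.15). Of its exon bases 23.4% are covered by AC009630.1 and AC009630.2 on the other strand. GINS1 was at 25.5, 22.4 and 18.7. Its 1 coding transcript was nearly level between the siRNAs, at 7.79, 6.96 and 6.98, while the noncoding GINS1-202 was at 6.51, 5.64 and 3.85. GINS2 was at 15.4, 11.2 and 13.0, and GINS3 at 12.6, 9.74 and 13.6. With siRNA 1 all 4 stood below the control, by 0.14 to 0.43 on the log2 scale, while with siRNA 2 they ranged from -0.89 (GINS4) to 0.11 (GINS3).

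PCNA, the sliding clamp that holds the polymerases on DNA, had the deepest coverage of the list, with 3608 read equivalents in the control. Its level was 123, 105 and 77.7, and the ratios of -0.22 ± 0.04 and -0.66 ± 0.04 put it below the control beyond counting error with each siRNA. Among the subunits of the clamp loader RFC, 0 of 5 reached 1.5-fold in either library. RFC3 was at 30.5, 24.9 and 23.0, below the control in both, and RFC2 at 36.8, 36.7 and 30.1. RFC4 was above the control in both, at 26.9, 36.8 and 29.8 (0.44 ± 0.18 and 0.14 ± 0.19), but within counting error with siRNA 2. RFC1, the large subunit, was at 39.5, 43.9 and 43.4 (0.15 ± 0.10 and 0.13 ± 0.10), above the control by little more than counting error. RFC5 was at 38.3, 30.8 and 38.4.

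All 7 polymerase and primase genes stood below the control with siRNA 2, and 5 of them with siRNA 1. POLA2, the B subunit of polymerase alpha, was at 23.2, 19.7 and 12.6 (-0.23 ± 0.11 and -0.83 ± 0.13). Of its exon bases 36.1% also belong to AP000944.2, a gene on the same strand, so part of its value cannot be assigned. POLE2, the B subunit of polymerase epsilon, was at 7.66, 6.20 and 4.13 and rests on 76.5, 60.1 and 35.6 read equivalents, which leaves its ratio of -0.76 ± 0.29 wide. The polymerase catalytic subunits POLA1, POLE and POLD1 stood closer to the control with siRNA 2 than POLA2 and POLE2 did. POLA1 was at 13.9 in the control, 13.6 with siRNA 1 and 79.4% of the control with siRNA 2, POLE was at 51.4, 56.3 and 48.3, and POLD1 at 15.6, 18.3 and 12.9, the last 2 above the control with siRNA 1. POLD3, an accessory subunit of polymerase delta, was at 31.3, 24.9 and 26.4. With siRNA 2 it was as close to the control as the catalytic POLD1 (84.3% and 82.6%). The primase PRIM1 was at 24.3, 19.5 and 20.7, and 16.8% of its exon bases are shared with AC117378.1 and NACA on the same strand.

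FEN1 and LIG1 finish the lagging strand by trimming and sealing Okazaki fragments. FEN1 was at 96.1, 77.4 and 62.7 (-0.31 ± 0.04 and -0.61 ± 0.04), lower step by step and well covered. LIG1, the ligase, was at 51.8, 61.4 and 39.7, above the control with siRNA 1 and below it with siRNA 2. RPA, the heterotrimer that coats single-stranded DNA, held the other gene that was lower with both siRNAs. RPA2 (chromosome 1, 27891524 to 27914746, minus strand) was at 74.7, 48.5 and 49.3. These are 64.9% and 65.9% of the control (-0.61 ± 0.08 and -0.59 ± 0.08), close to the 1.5-fold limit and nearly equal for both siRNAs, and each of its 5 transcripts lay between 62.4% and 70.4%. When the mean over transcripts was used in place of the sum, RPA2 no longer passed, as the added 1 FPKM shrinks ratios of smaller values more. In limma its log2 difference was -0.60 with an SE of 0.37 (Benjamini-Hochberg adjusted p = 1.00). The SD of its own 2 ratios was 0.016, so this SE comes mostly from the spread of other genes. RPA3 was at 49.6, 38.7 and 37.1, and the large subunit RPA1 at 78.9, 65.9 and 83.5, above the control with siRNA 2.

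Nucleotide supply split between its enzymes. RRM2, the S-phase subunit of ribonucleotide reductase (chromosome 2, 10120698 to 10211725, plus strand), was at 97.0, 98.5 and 48.2, equal to the control with siRNA 1 and at 49.6% of it with siRNA 2, a log2 ratio with a counting error of 0.10. Its constant partner RRM1 was at 178, 207 and 166. TK1, the thymidine kinase of the salvage route, was at 88.1, 84.6 and 125, the highest ratio of any member with siRNA 2 (0.49 ± 0.07), and TYMS, which makes thymidylate anew, was at 32.3, 30.8 and 34.4. Exons of ENOSF1 and TYMSOS on the other strand cover 47.5% of the exon bases of TYMS, and whether strand was used in counting is not stated.

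CCNE2, which encodes cyclin E2, the partner of CDK2 at the start of S phase, was the member farthest from the control (chromosome 8, 94879770 to 94896678, minus strand). It was at 24.4, 12.1 and 6.54, or 49.5% and 26.8% of the control, on 362, 183 and 94.8 read equivalents. The control library was the highest and the siRNA 2 library the lowest, and their difference was many times the counting error (log2 ratios -0.96 ± 0.13 and -1.75 ± 0.17). All 8 of its transcripts were lower with both siRNAs, at 38.0% to 54.5% and 22.2% to 30.4% of the control, although they share reads. Exons of INTS8 and AC087752.4 on the other strand cover 37.1% of the exon bases of CCNE2, and whether strand was used in counting is not stated. The mean log2 ratio was -1.35 ± 0.56 (SD, n = 2), with an SE of 0.46 in limma (Benjamini-Hochberg adjusted p = 1.00). Cyclin E1, from CCNE1, was at 2.52, 3.46 and 1.89 on 30.6, 35.5 and 19.8 read equivalents, so its ratios of 0.34 ± 0.36 and -0.29 ± 0.42 lie within counting error. E2F1 was at 2.90, 3.86 and 2.29, higher than the control with siRNA 1 and lower with siRNA 2. CDC25A, the phosphatase that activates CDK2, was at 16.8, 13.2 and 12.5 (-0.32 and -0.39).

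The chromatin genes of S phase all stood below the control with siRNA 2, with a median log2 ratio of -0.28. UHRF1, which guides DNA methylation to new strands, was at 12.1, 10.3 and 8.88, and SLBP, which binds histone mRNA, was at 60.3, 53.1 and 55.2. CHAF1A, the large subunit of the histone chaperone CAF-1, was at 104, 103 and 78.6. CHAF1B, its middle subunit, was at 6.86 in the control, 7.56 with siRNA 1 and 87.5% of the control with siRNA 2. In the control, 41.7% and 22.4% of the CHAF1B sum came from the noncoding CHAF1B-203 and CHAF1B-202. Its 1 coding transcript was at 2.46, 2.58 and 1.82, or 73.8% of the control with siRNA 2. By summed FPKM the 4 genes ranged from -0.41 to -0.13 on the log2 scale with siRNA 2, and 0 of them reached 1.5-fold.

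**Figure D3:**
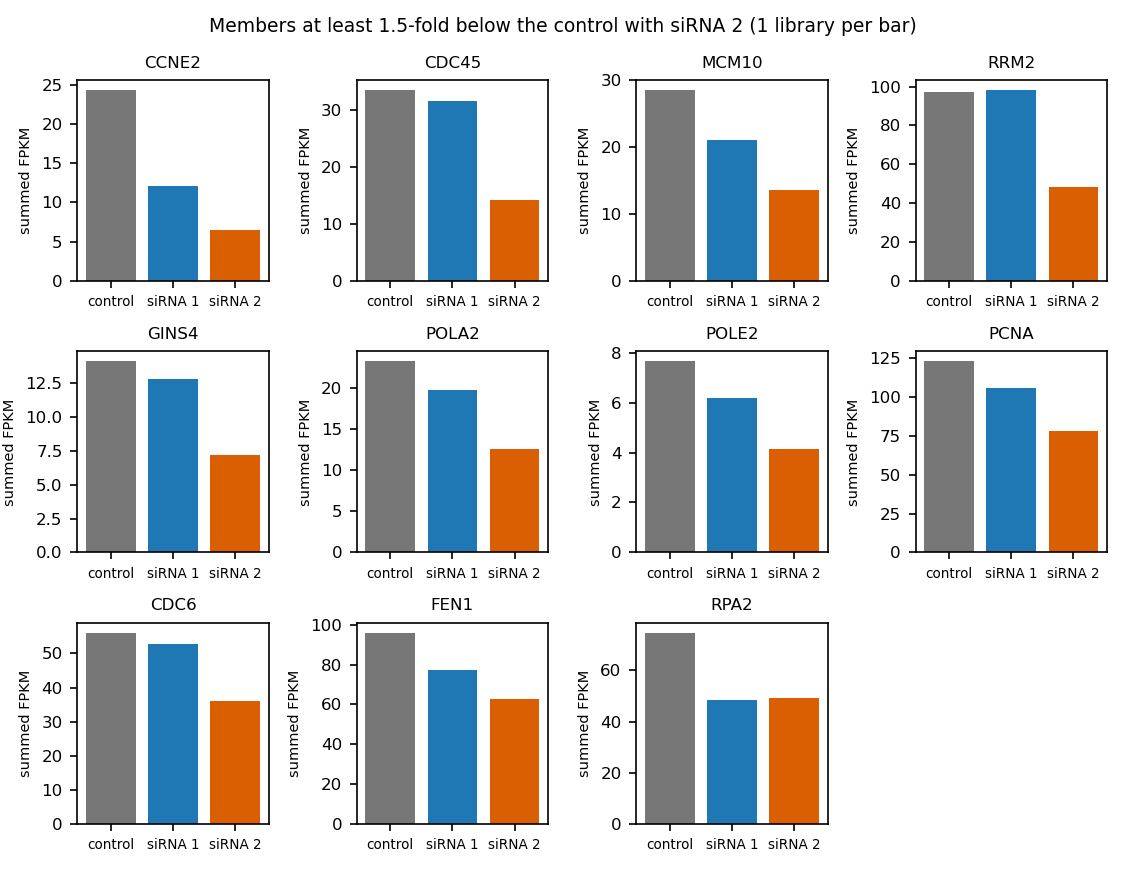
Summed FPKM in the control, siRNA 1 and siRNA 2 libraries for the 11 members at least 1.5-fold below the control with siRNA 2, ordered by that ratio, with 1 library per bar. The siRNA 2 bar is the lowest in 10 of the 11 panels, and in RPA2 both siRNA bars are nearly level at 48.5 and 49.3.

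The siRNA libraries were also compared with each other, with no replicate check since each siRNA has 1 library. With siRNA 2, 34 of the 46 members were below their siRNA 1 level (44.2% of all genes). By at least 1.5-fold 9 were lower (19.6%, against 10.5% of all genes) and 0 higher (13.7% of all genes). These 9 were CDC45 (log2 ratio of siRNA 2 over siRNA 1 of -1.09 ± 0.18), RRM2 (-1.02 ± 0.10), CCNE2 (-0.80 ± 0.18), GINS4 (-0.75 ± 0.15), MCM6 (-0.66 ± 0.05), CCNE1 (-0.63 ± 0.40), LIG1 (-0.62 ± 0.12), POLA2 (-0.60 ± 0.13) and MCM10 (-0.59 ± 0.10). In 18 members (39.1%) the 2 siRNAs lay on opposite sides of the control, a share near that of all genes (40.5%). Among them were MCM6, MCM7, LIG1, E2F1 and RRM1 above it with siRNA 1 and below it with siRNA 2, and CDT1, GINS3 and RPA1 the reverse. The count depends on the gene summary, with 5 members apart when the highest transcript stood for each gene and 3 with the mean over transcripts. For the mean this comes from the added 1 FPKM, which shrinks its ratios more than those of the larger sum.

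Levels of different genes were compared by the mean FPKM of their protein-coding transcripts, which is per length. In the control PCNA (61.5) and FEN1 (32.0) led, followed by RPA2 (14.9), TK1 (14.6), RRM1 (14.0), CHAF1A (14.0) and CDT1 (14.0), and these last 5 lay within 1 FPKM of each other. PCNA and FEN1 kept the first and second place and CCNE1 the last place in all 3 libraries (0.382, 0.511 and 0.287). The MCM subunits were of one order, from 6.27 (MCM7) to 11.7 (MCM3) in the control. CCNE2 went from rank 29 of 46 in the control to 41 with siRNA 1 and 43 with siRNA 2, RPA2 from 3 to 9 and 9, and RRM2 from 23 to 22 and 32.

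Transcript composition of the members was looked at because SRSF5 acts in splicing. Of 383 transcripts in the 43 members with at least 5 FPKM in every library and more than 1 transcript, 0 had a share of the gene's sum that differed from the control by 10 or more percentage points, in one direction, with both siRNAs (0.00112% of all transcripts), and 0 did so with either siRNA alone (0.0135% and 0.027% of all transcripts). The widest common difference was that of CHAF1B-203, a noncoding transcript of 541 bases, whose share was 41.7%, 48.2% and 47.3% on 69.0, 83.3 and 63.3 read equivalents. Retained-intron transcripts were listed for 30 members, and their mean FPKM was 80.9%, 80.9% and 81.1% of that of the coding transcripts (median over these genes). For transcripts marked for nonsense-mediated decay, in 19 members, the medians were 102%, 100% and 102%. Since reads are shared between isoforms, these shares change less than the isoforms themselves would. For the same reason the percentages of the coding transcripts are not levels of the retained-intron or decay isoforms, whose values include reads of shared exons.

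Beyond the 46 members, 128 other genes of replication and S-phase control were grouped in 8 lists, of which 125 were measured. With siRNA 2, 21 of the 125 were at least 1.5-fold lower (16.8%, against 10.1% of all genes) and 14 higher (11.2%, against 13.2%). With siRNA 1, 7 were lower and 7 higher (5.6% each, against 5.47% and 6.18%), and with both 1 was lower (0.8%, against 1.47%) and 5 higher (4%, against 3.19%). Most of these shares lie near those of all genes. The gene lower with both was SKP2, the F-box protein that targets the inhibitor p27 for degradation, at 32.3, 19.4 and 14.3 (-0.71 ± 0.10 and -1.12 ± 0.11). Higher with both were CDKN1A, which encodes the kinase inhibitor p21, at 19.3, 29.5 and 30.9 (0.59 ± 0.12 and 0.65 ± 0.12), and CDK6, a cyclin D partner, at 8.07, 13.6 and 13.5 (0.69 ± 0.05 and 0.68 ± 0.05). The remaining 3 were histone genes, described next. In limma 0 of the 125 passed an adjusted p (Benjamini-Hochberg) of 0.05, and 6 an unadjusted one (4.8%, against 2.99% of all genes). Of these 6, 5 were in the histone list and 1 among G1 and S cyclins, kinases and inhibitors.

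Histone genes stood mostly above the control, opposite to the replication genes. Of 15 listed, 13 were measured, with a median log2 ratio of 0.40 with siRNA 1 and 1.05 with siRNA 2. With siRNA 2, 8 of the 13 were at least 1.5-fold higher (13.2% of all genes) and 0 lower (10.1% of all genes). H2AC6 was at 4.21, 9.85 and 51.1 (1.06 ± 0.17 and 3.32 ± 0.15), H2BC5 at 10.7, 19.5 and 58.3 (0.81 ± 0.14 and 2.34 ± 0.12), and H2BC4 at 2.37, 4.84 and 8.79 (0.79 ± 0.30 and 1.54 ± 0.28), each lowest in the control and highest with siRNA 2. The 3 of the list below the control with both siRNAs, named after their values were seen, were H1-4 and the variant histone genes H2AZ1, at 86.5, 60.6 and 72.6, and H2AX, at 151, 105 and 127. Histone genes are a family of near-identical copies, so their reads may be placed in more than 1 gene. Most replication-dependent histone mRNAs lack a poly(A) tail, and whether the library kit, one for mRNA, captures them was not tested.

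In the other lists 0 genes passed with both siRNAs, and for most of them the genes with the lowest and the highest mean ratio are named. Among 15 other licensing and firing factors the median was -0.13 and -0.07, from DONSON (-0.48 ± 0.28 and -1.33 ± 0.37) to TOPBP1 (0.18 and 0.18). DONSON rests on 65.2, 42.4 and 20.2 read equivalents. Among 19 polymerase subunits and fork proteins it was -0.05 and -0.22, from TIPIN (-0.33 and -1.45), a fork protection factor, to POLE4 (0.40 and 0.61). Nucleotide supply enzymes (18 measured, -0.21 and -0.15) ran from CTPS1 (-0.28 and -1.21) to DCK (0.17 and 0.57). The 12 E2F and pocket protein genes (-0.13 and -0.17) ran from the repressor E2F7 (mean log2 ratio -0.40) to E2F4 (0.22), with 3 lower and 0 higher with siRNA 2. Of 12 chromatin assembly genes (-0.09 and 0.01), the histone chaperone ASF1B was lowest (-0.59) and its paralog ASF1A highest (0.49), with 3 lower and 1 higher. Of 18 checkpoint and recombination genes (-0.07 and -0.13), 4 were lower and 0 higher. The counts of lower and higher genes in these last lists are with siRNA 2, where 10.1% of all genes were lower and 13.2% higher.

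Genes of G2 and mitosis, the next stage of the cell cycle, were set beside the replication genes. Their 32 members had a median log2 ratio of 0.03 with siRNA 1 and -0.06 with siRNA 2, where the replication members had -0.08 and -0.27. With siRNA 2, 1 of the 32 was at least 1.5-fold below the control (3.12%) and 1 above it (3.12%). Over all genes these shares were 10.1% and 13.2%, and of the 46 replication members 11 were lower (23.9%). Against siRNA 1, 4 of the 32 were at least 1.5-fold lower with siRNA 2 (12.5%, against 10.5% of all genes). By the same rule 2 were higher (6.25%, against 13.7% of all genes). The difference between these lists was not tested.

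**Figure D4:**
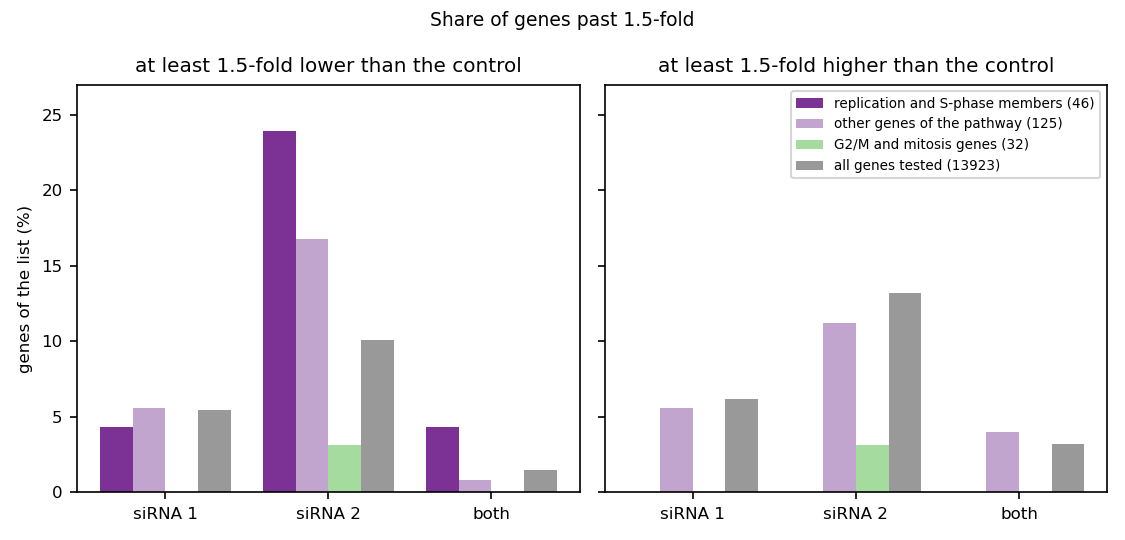
Percentage of genes at least 1.5-fold lower (left) or higher (right) than the control with siRNA 1, siRNA 2 and both, for the 46 members, 125 other genes of the pathway, 32 G2 and mitosis genes and all 13923 genes tested. The members' bar is highest for lower genes with siRNA 2 (23.9%, against 10.1% of all genes) and absent on the right.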

How the data were processed

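The 3 libraries were 1 control siRNA and 2 SRSF5 siRNA transfections of HaCaT cells. Per the file headers, the authors deposited 1 FPKM value per transcript with its exons, strand and length (247012 transcripts per library). The aligner and the counter: not given in the sources used here. Builds, per the submitters' processing notes, are GRCh38.p12, GRCm38 and mm10, with no role stated. Multiplied by transcript length, FPKM fell on multiples of a fixed step (100% of values below 100000 steps, tolerance 0.05), read as bases, and in 0 of 157 nested pairs of member transcripts did the longer hold fewer bases, so isoforms share reads. No count test was run.

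Transcripts off the chromosomes (20182) and pseudoautosomal copies on Y (161) were left out, and FPKM were summed per gene. Genes with a mean of at least 1 FPKM were compared as log2(FPKM + 1), a scale that makes differences of low genes too small. limma 3.58.1 (R 4.3.3, with a trend, checked on simulated data) was fitted over all 13923 genes. These p-values reflect just the spread between the 2 SRSF5 siRNA libraries, pooled over genes, and it may be technical. The 1 control library adds nothing to that spread, and the 2 libraries were given different siRNAs. Errors of single ratios cover counting error only, as PCR duplicates are not separate molecules. The members and lists were chosen with earlier results of these data known. All 46 members are given with their values, and of the other lists the genes 1.5-fold apart in both libraries or, for most lists without one, the ends of the list. For the checkpoint and recombination list and the G2 and mitosis list only counts and medians are given. Promoters were named by mean ratio among those with an E2F motif, and restricting them to the 250 bases before the start was decided after the motifs were seen. Older gene symbols were matched by gene identifier.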

Additional observations from a re-analysis of the deposited data

How the results depend on the processing

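Taking each gene's transcript mean instead of the sum, 1 member (CCNE2) was at least 1.5-fold lower in both SRSF5 siRNA libraries instead of 2, 7 instead of 11 were lower with siRNA 2, 1 instead of 2 with siRNA 1, and 3 instead of 9 were apart between the siRNAs. With the highest transcript of each gene 5 were apart. The mean lies closer to the pseudocount of 1 than the sum does, which shrinks ratios. Leaving out 1 SRSF5 siRNA library gave 2 to 11 members lower and 0 higher, 11 without siRNA 1. A robust limma fit called 3 genes (ALPP, OLR1 and SERPINB7, adjusted p 0.037 each, Benjamini-Hochberg), none of them a member, where the other fits called 0. The other 41 values, from a pseudocount of 0.1 FPKM, no filter, median scaling and those above, kept their direction and stayed within 1.5 times or within the spread between the siRNAs. The alternatives for the counts with a single siRNA were chosen after seeing the data. limma could not be fitted without 1 SRSF5 siRNA library, since no residual degrees of freedom remain. No paired analysis was possible because the control has 1 library and carries no number in the labels. POLE2 and CCNE1, below 100 read equivalents in every library, are limited by depth. With siRNA 2, CDC45 (88.0) and CCNE2 (94.8) were below 100 as well.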
